A study of Mus musculus with 4 samples.

Results

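The transcription factor genes Stat2, Stat3, Irf1, Irf2, Irf3, Irf5, Irf7 and Irf9 were followed in the sub-lines 4T1-A and 4T1-S of 4T1, a mammary carcinoma cell line of BALB/c mice. A gene was included if a spot other than a control carried its name, with the older name Isgf3g resolved to Irf9 through its RefSeq accession. This gave 8 genes of 27670 gene names, 12 probes of 41174 and 21 spots of 43379. Each sub-line was measured on 2 one-colour Agilent arrays of total RNA. The labels give 4T1 as the parental line of both sub-lines and name no treatment, dose or time, and the title of the series calls 4T1-S immunogenic. Separate cultures are not stated for the 2 arrays of a sub-line, so the p-values reflect array-to-array spread alone, which may be technical. All arrays lay on 1 slide and each sub-line held its own positions there, so slide position and sub-line cannot be told apart. Other genes of the STAT and IRF families were not analysed here.

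STAT proteins wait in the cytoplasm until JAK kinases, bound to an activated cytokine receptor, phosphorylate them, after which they enter the nucleus and bind DNA. Type I interferons act mainly through ISGF3, a complex in which Stat2 and another STAT are joined by Irf9, the subunit that recognises the interferon-stimulated response element (ISRE). IRF proteins share a DNA-binding domain that reads this same element. They act in the sensing of viruses and in the response to interferon, and in tumour cells they set the level of antiviral and antigen presentation genes.

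Irf7, Irf5 and Irf9 were higher in 4T1-S than in 4T1-A, by 4.05-fold, 3.72-fold and 3.04-fold. Stat2, Stat3, Irf1, Irf2 and Irf3 did not pass the test, and the 95% intervals of their differences lay between 0.619-fold and 1.56-fold. The test was limma's moderated test over all genes with the Benjamini-Hochberg adjustment and a threshold of 0.05. It called 3 of the 8 genes higher, where 3.95% of the 16173 genes tested were called higher, and 0 lower, against 3.01%. In either direction 6.96% of all genes were called. By the unadjusted p, at the same threshold of 0.05, the counts for the 8 genes were again 3 and 0. Over all genes, 4637 of the 16173 fell under that threshold in either direction. Both 4T1-S arrays lay above both 4T1-A arrays for 4 of the 8 genes, as for 40.6% of all genes, and below them for 1, as for 18.5%. The median difference of the 8 genes was 0.16 on the log2 scale and that of all genes tested was 0.13. Of the calls over all genes, 56.8% were higher with the scaling used here, against 17.7% with scaling to the median, 36.4% with quantile normalization and 31.9% with cyclic loess. The 3 rises passed under each of these scalings. With no filter on background 0 of the 8 genes passed, where 271 of 27670 genes did. A dimmer second probe of Irf9 was 1.68-fold higher in 4T1-S and did not pass in the fit over all probes.

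**Figure D1:**
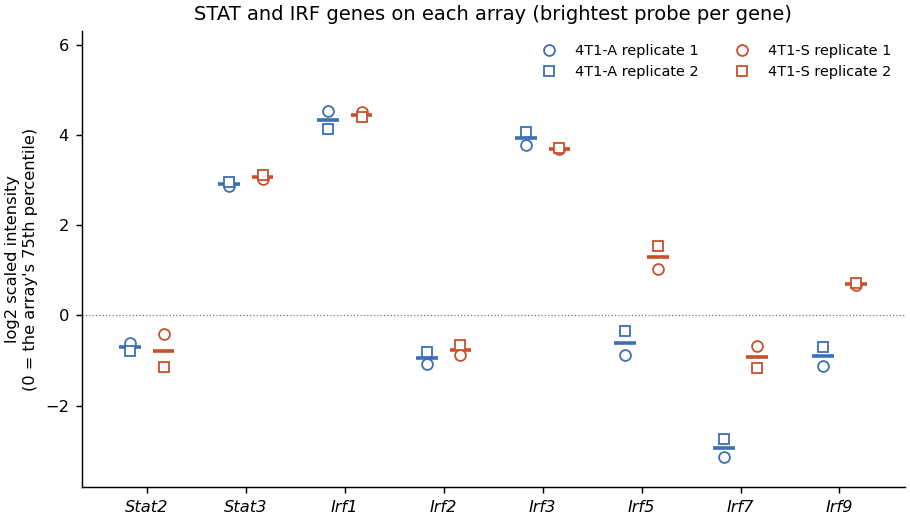
Log2 of the scaled intensity (vertical axis, 0 being the array's 75th percentile) of the brightest probe of each gene, with circles for replicate 1, squares for replicate 2 and bars for the mean of 2 arrays. The 4T1-S arrays sit above the 4T1-A arrays by 1.90 for Irf5 and 2.02 for Irf7, while those of Stat2, Irf1 and Irf2 overlap; heights of different genes come from different probes and are not comparable.

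The promoters of 6 of the genes are shown because they hold, or lack, the letters of the element that IRF proteins and ISGF3 bind. They are the 250 bases before each start in a RefSeq promoter table, 5′ to 3′ on the strand of the gene, on assembly GRCm38.p6, which is the C57BL/6J genome and not that of the BALB/c-derived cells. A start in that table need not be the outermost one of the gene: the Irf5 window lies wholly within the annotated gene, from 245 bases inside its 5′ end, and the last 75 bases of the Irf7 window lie within Irf7. Capitals mark matches, on either strand, to the ISRE, searched as GAAA, any 2 bases and GAAA again, or to TTCNNNGAA for the gamma-activated sequence (GAS) that STAT dimers bind. The windows are chr7:141266425-141266674, minus strand for Irf7; chr14:55603735-55603984, plus strand for Irf9, the first of its 2 entries; chr6:29526375-29526624, plus strand for Irf5; chr10:128270248-128270497, plus strand for Stat2; chr8:46739495-46739744, plus strand for Irf2; and chr11:53769764-53770013, plus strand for Irf1, the first of its 2 entries.
Irf7: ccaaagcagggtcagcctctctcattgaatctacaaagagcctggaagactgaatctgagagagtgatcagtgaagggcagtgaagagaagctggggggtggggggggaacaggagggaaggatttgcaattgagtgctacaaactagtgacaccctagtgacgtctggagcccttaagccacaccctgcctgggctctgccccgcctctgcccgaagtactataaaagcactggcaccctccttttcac
Irf9: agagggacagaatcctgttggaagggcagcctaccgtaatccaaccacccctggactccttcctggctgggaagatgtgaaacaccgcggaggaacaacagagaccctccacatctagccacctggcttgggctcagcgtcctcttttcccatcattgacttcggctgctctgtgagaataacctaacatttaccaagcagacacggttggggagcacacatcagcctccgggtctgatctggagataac
Irf5: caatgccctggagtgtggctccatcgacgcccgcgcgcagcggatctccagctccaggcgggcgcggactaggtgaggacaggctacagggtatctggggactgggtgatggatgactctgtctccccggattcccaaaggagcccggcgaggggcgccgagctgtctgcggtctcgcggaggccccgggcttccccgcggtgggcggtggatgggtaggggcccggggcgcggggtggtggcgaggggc
Stat2: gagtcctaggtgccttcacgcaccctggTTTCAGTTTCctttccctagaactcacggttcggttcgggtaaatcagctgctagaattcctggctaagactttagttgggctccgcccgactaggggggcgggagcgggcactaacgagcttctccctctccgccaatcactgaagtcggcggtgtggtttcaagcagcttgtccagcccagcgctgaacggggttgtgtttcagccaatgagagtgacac
Irf2: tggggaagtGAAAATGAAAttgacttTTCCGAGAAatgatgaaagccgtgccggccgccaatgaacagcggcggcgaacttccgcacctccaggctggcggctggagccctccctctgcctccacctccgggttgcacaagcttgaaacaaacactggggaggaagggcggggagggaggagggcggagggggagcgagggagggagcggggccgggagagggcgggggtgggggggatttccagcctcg
Irf1: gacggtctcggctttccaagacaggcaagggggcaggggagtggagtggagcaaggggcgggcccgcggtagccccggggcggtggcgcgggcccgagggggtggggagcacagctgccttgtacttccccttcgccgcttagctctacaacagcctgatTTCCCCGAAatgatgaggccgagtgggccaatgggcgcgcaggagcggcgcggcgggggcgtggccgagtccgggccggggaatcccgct

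No match to either motif was found in the windows of Irf7, Irf9 and Irf5, the genes that rose, and the second entry of Irf9, which lies within the gene, held none. The bases before the outermost start of Irf5 were not searched. The Stat2 promoter held TTTCAGTTTC, an ISRE match read on the opposite strand, between 222 and 213 bases before the start. The Irf2 promoter held the ISRE match GAAAATGAAA between 241 and 232 bases before the start and, without overlap, the GAS match TTCCGAGAA between 224 and 216. The Irf1 promoter held the GAS match TTCCCCGAA between 90 and 82 bases before the start, and its second entry, within the gene, held none. Neither Stat3, with 54 bases of its window within the gene, nor Irf3 had a match. Among all 32851 promoter windows of this length, 2.98% held the ISRE letters and 7.02% the GAS letters. All 8 genes had an entry, 10 in all, so 2 of the 8 genes had an ISRE match and 2 a GAS match, Irf2 having both. A match is a string of letters, and its absence says only that these letters are not in the window.

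**Figure D2:**
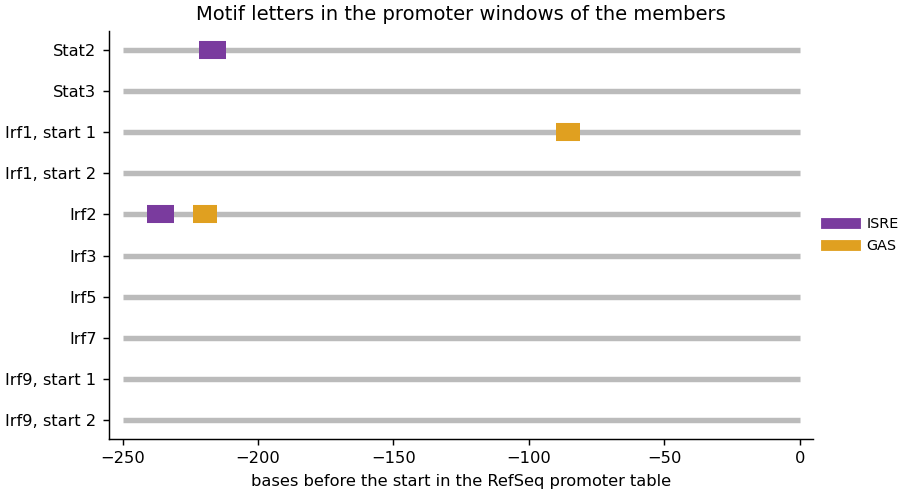
Position of each motif match (horizontal axis, bases before the start in the RefSeq promoter table) in the 10 promoter entries of the 8 genes, 1 line per entry, with the ISRE in purple and the GAS in yellow. The matches lie in Stat2, Irf2 and Irf1, and the lines of Irf5, Irf7 and Irf9 are empty; the Irf5 window and the second windows of Irf1 and Irf9 lie within the gene.

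Irf7 encodes the factor that, once activated by virus sensors or Toll-like receptors, drives most interferon alpha genes, and it is itself induced by interferon. Its scaled intensity, meaning the processed intensity as a multiple of the array's 75th percentile, was 0.114 and 0.150 on the 4T1-A arrays and 0.627 and 0.447 on the 4T1-S arrays. Both 4T1-S arrays lay above both 4T1-A arrays, and the probe was well above background on all 4. The difference was 2.02 ± 0.24 in log2 units (SE, n = 2 arrays per sub-line; 95% interval 1.46 to 2.58), with limma adjusted p = 0.00286. It exceeded the gaps between replicate arrays, which were 0.40 in 4T1-A and 0.49 in 4T1-S, and the rise ranked 54 among the 16173 genes. With normexp background correction the difference was 1.38.

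Irf5 encodes a factor that links Toll-like receptors and their adaptor Myd88 to inflammatory cytokine genes, and it is best known from myeloid and B cells. Its scaled intensity was 0.545 and 0.792 in 4T1-A against 2.05 and 2.93 in 4T1-S, with no overlap. The difference was 1.90 ± 0.26 (SE, n = 2 arrays per sub-line; 95% interval 1.29 to 2.50; limma adjusted p = 0.00583). The replicate arrays of this gene were 0.54 apart in 4T1-A and 0.52 apart in 4T1-S. Leaving out 4T1-S replicate 2 ended the call, with a difference of 1.64 and limma adjusted p = 0.0702.

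Irf9, the DNA-binding subunit of ISGF3, was measured by 2 probes of the same transcript. The brighter gave 0.462 and 0.620 in 4T1-A against 1.61 and 1.65 in 4T1-S, so that both 4T1-S arrays lay above. Its log2 difference was 1.61 ± 0.21 (SE, n = 2 arrays per sub-line; 95% interval 1.12 to 2.09; limma adjusted p = 0.00461). The call did not survive leaving out 4T1-S replicate 1 (adjusted p = 0.0509) or replicate 2 of that sub-line (0.0621). The dimmer probe gave 0.175 and 0.186 in 4T1-A against 0.333 and 0.276 in 4T1-S, again with no overlap. In the fit over all 23691 probes tested, its difference of 0.75 ± 0.20 did not pass (adjusted p = 0.0801), whereas the brighter probe passed (0.00715). The mean of both probes differed by 1.18 and passed at adjusted p = 0.0138.

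Stat2 is the partner of Irf9 in ISGF3. Its scaled intensity was 0.655 and 0.577 in 4T1-A against 0.752 and 0.451 in 4T1-S. The 4T1-S arrays lay on either side of the 4T1-A arrays, 0.74 apart on the log2 scale. The difference was -0.08 ± 0.26 (95% interval -0.69 to 0.54; limma adjusted p = 0.875), and it was 0.29 without 4T1-S replicate 2. Within each array, the log2 ratio of Irf9 to Stat2 was higher by 1.68 in 4T1-S, with no overlap between sub-lines. This shift is the Irf9 difference less the Stat2 difference, so it is not further evidence. A 2-sided exact permutation test of that shift gave p = 0.333, the smallest value that 2 arrays against 2 can give. It was 0.333 after adjustment over the 4 ratios compared. Among these, the ratio of the brighter to the dimmer Irf9 probe was also higher in 4T1-S, by 0.86 with no overlap. Both of those probes read the same transcript, so a ratio can shift between probes of 1 gene.

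Stat3 carries the signals of interleukin-6 and of the other cytokines that use the receptor chain gp130. Its main probe was spotted 10 times on each array, with a coefficient of variation between 5.26% and 8.56% over the spots. The scaled intensity was 7.31 and 7.77 in 4T1-A against 8.10 and 8.62 in 4T1-S. The 4T1-S arrays were the higher ones, but the difference of 0.15 ± 0.18 did not pass (95% interval -0.28 to 0.57; limma adjusted p = 0.633), and scaling to the median turned it to -0.14. A dimmer probe read 0.124 and 0.136 in 4T1-A against 0.168 and 0.172 in 4T1-S, and its difference of 0.39 ± 0.19 did not pass either (adjusted p = 0.241 over all probes).

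Irf1 and Irf2 bind the same element, Irf1 as an activator induced by interferon gamma and Irf2 largely as its antagonist. The brighter Irf1 probe read 23.1 and 17.5 in 4T1-A against 22.7 and 21.2 in 4T1-S, all within the range of 4T1-A. Its difference was 0.12 ± 0.21 (95% interval -0.36 to 0.61; limma adjusted p = 0.738), but scaling to the median turned it to -0.17 and leaving out 4T1-A replicate 2 to -0.077. The dimmer probe read 1.38 and 0.901 in 4T1-A against 1.31 and 0.808 in 4T1-S and differed by -0.12 ± 0.30 (adjusted p = 0.841 over all probes). Neither Irf1 probe separated the sub-lines. Irf2 read 0.475 and 0.570 in 4T1-A against 0.545 and 0.637 in 4T1-S, which overlap, with a difference of 0.18 ± 0.20 (95% interval -0.29 to 0.64; limma adjusted p = 0.598). With scaling to the median the Irf2 difference was -0.11.

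Irf3, which is present before infection and is activated by the kinase Tbk1, is the closest relative of Irf7. Its brighter probe read 13.8 and 16.8 in 4T1-A against 12.9 and 13.0 in 4T1-S, so that both 4T1-S arrays lay below. The difference of -0.23 ± 0.19 did not pass (95% interval -0.68 to 0.22; limma adjusted p = 0.463). The dimmer probe read 0.131 and 0.0964 in 4T1-A against 0.0950 and 0.102 in 4T1-S, which overlap, with a difference of -0.19 ± 0.22 (adjusted p = 0.622 over all probes). Within each array, the log2 ratio to Irf3 was higher in 4T1-S by 2.25 for Irf7 and by 2.13 for Irf5, with no overlap between sub-lines. These shifts too follow from the gene differences already given and are not further evidence. The 2-sided exact permutation test again gave p = 0.333 for each, the smallest possible value.

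**Figure D3:**
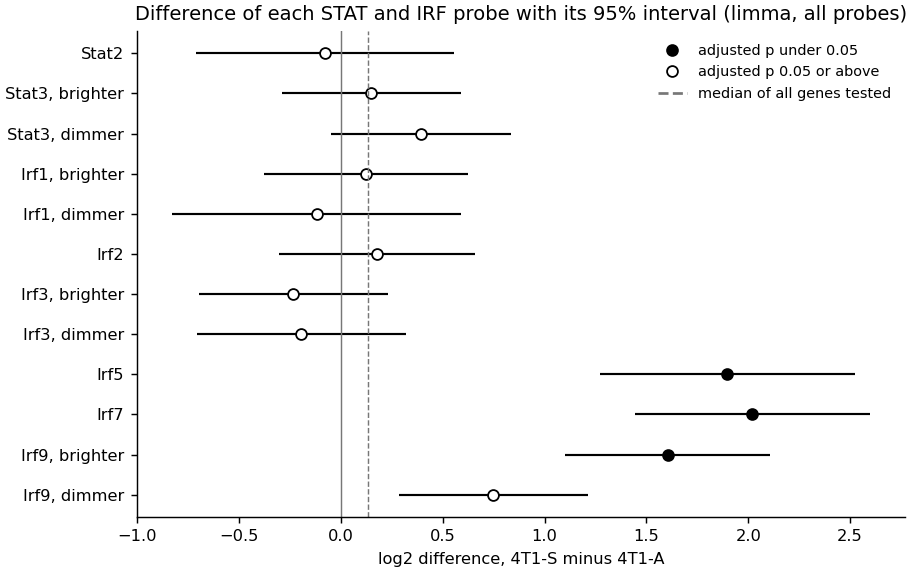
Log2 difference, 4T1-S minus 4T1-A (horizontal axis), of all 12 probes with the 95% interval from the fit over all probes; filled circles passed at an adjusted p under 0.05 and the dashed line is the median of all genes, 0.13. The Irf5 and Irf7 probes and the brighter Irf9 probe lie above 1.5, the dimmer Irf9 probe is at 0.75, and the other intervals include 0.

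All 12 probes were well above background on all 4 arrays, and 3 of them passed as higher and 0 as lower in the fit over all probes, where 4.51% of the probes tested were called, 2.16% as higher and 2.35% as lower. Both 4T1-S arrays lay above both 4T1-A arrays for 6 of the 12 probes and below them for 1, against 37.8% and 18.7% of all probes tested. The error that the scanner software attached to a spot of these genes lay between 8.28% and 17.1% of its signal. Having no filter on background raised the number of genes tested to 27670 and lowered limma's prior degrees of freedom from 5.71 to 2.78. With that setting 0 of the 8 genes passed, at limma adjusted p = 0.0562 for Irf7, 0.0570 for Irf9 and 0.0766 for Irf5. With 1 array left out, the differences lay between 1.77 and 2.26 for Irf7, 1.63 and 2.17 for Irf5, and 1.39 and 1.82 for Irf9. Such fits leave 1 array in a sub-line. Without a 4T1-A array the prior degrees of freedom were 74.2 or infinite, so passing there says little of a gene's own spread. In the fit over genes, the Irf5 and Irf9 calls were lost without 4T1-S replicate 2, and the Irf9 call also without replicate 1 of that sub-line. In the fit over probes, leaving out 4T1-S replicate 1 did not end the Irf9 call.

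By the distance between log2 values centred over the 4 arrays, the genes nearest to Irf7 were Trim30a (0.27), Mx2, an interferon-induced GTPase (0.27), Anxa8, an annexin (0.31), and Samd14 (0.36). The differences of these 4 genes lay between 1.74 for Samd14 and 2.04 for Mx2. The genes nearest to Stat2 were Gpn2, Slc29a3, a nucleoside transporter, and Get3, all at a distance of 0.06. With 4 arrays in a pair of groups, these distances are a description.

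Scaling to the median moves every difference given here by -0.29, so the sign of a small median depends on the scaling: the ISGF3 targets keep a median of 0.56 and the other 7 pathway lists lie between -0.21 and -0.0078. Upstream of the factors, among 16 tested genes for receptors of interferons or gp130 cytokines and for JAK kinases, 1 rose, 0 fell and 15 did not pass, with a median difference of 0.25. The gene that rose was Il27ra, a receptor chain for interleukin-27, which was not well above background in 4T1-A. Against its measured 4T1-A signal it was higher in 4T1-S by 6.66-fold, with a confidence interval from 4.95-fold to 8.98-fold. Where a fold is given below as "at least", the brighter mean is compared with the detection limit or the measured signal, whichever is higher. Such a bound leaves out the spread between arrays. The interferon receptor chains Ifnar1 (0.48 ± 0.32) and Ifnar2 (0.39 ± 0.25) and the kinases Jak1 (0.08 ± 0.21) and Tyk2 (-0.19 ± 0.19) did not pass, and these were chosen after their values were seen. Where a gene had to be well above background on all 4 arrays, Il27ra was not tested and the list had 0 calls. In that setting 608 of 14209 genes passed. By the unadjusted p alone, at 0.05 and with the reported filter, the list had 5 higher and 1 lower. Over all genes tested 3.95% were called higher and 3.01% lower, and 4637 of 16173 had an unadjusted p under 0.05 in either direction. The same shares apply to the lists below. Counts without a 4T1-A array rest on a nearly fixed prior variance. Leaving out 4T1-A replicate 2 brought the list to 5 higher, leaving out 4T1-A replicate 1 to 1 higher and 1 lower, and the mean of probes to 2 higher.

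Of 17 genes for interferons and gp130 ligands on the array, 10 could be tested. Limma called 0 of them, against 6.96% of all genes in either direction. With no adjustment, at p under 0.05, 1 was higher and 2 were lower, and 1 was called lower when any array other than 4T1-S replicate 1 was left out. The brightest, Cntf, a neurotrophic ligand of the family, differed by -0.58 ± 0.21 (adjusted p = 0.120). Among 17 kinases and adaptors that activate IRF proteins, 1 rose, 0 fell and 16 did not pass, with a median of 0.23. Of all genes tested, 3.95% were called higher. The kinase or adaptor gene that rose was Tbkbp1, which binds Tbk1, by 1.28 ± 0.25 (limma adjusted p = 0.0256). Its call was lost under 6 of 15 alternatives, with adjusted p between 0.0509 and 0.150, among them each that left out a 4T1-S array, and 3 of this list were called higher without 4T1-A replicate 2.

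Of 17 tested inhibitors of JAK-STAT signalling, 1 rose, 0 fell and 16 did not pass, and the median was 0.08. Over all genes 3.95% were called higher. The inhibitor that rose was Usp18, which strips Isg15 from proteins and blocks the interferon receptor, at 2.94 ± 0.33. With no filter on background its call was lost (limma adjusted p = 0.0570), and leaving out 4T1-A replicate 2 gave 2 calls in the list. Its scaled intensity was 0.122 and 0.255 in 4T1-A against 1.32 and 1.39 in 4T1-S. Of 14 co-factors of STAT or IRF proteins, limma called 0, against 6.96% of all genes. At an unadjusted p under 0.05, 1 co-factor was higher and 0 were lower. Without 4T1-A replicate 2 the co-factors had 2 calls. Their brightest, the histone deacetylase gene Hdac1, differed by 0.08 ± 0.19.

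Downstream, 15 of 29 tested ISGF3 targets rose, 0 fell and 14 did not pass. Of all genes tested, 3.95% were called higher and 3.01% lower. The median difference of the ISGF3 list was 0.85. Before adjustment, at p under 0.05, the counts were 18 and 1. The largest rises were those of Cmpk2, a mitochondrial nucleotide kinase (3.38 ± 0.34), of Rsad2, which encodes viperin (2.95 ± 0.22), and of Usp18. The count fell to 6 with no filter on background, to 8 without 4T1-S replicate 2 and to 10 without 4T1-S replicate 1, and over all 15 alternatives it lay between 6 and 18. The list was drawn up with earlier results of these data known, so its direction is not independent evidence.

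Targets of Irf1 or interferon gamma numbered 20 with a test: 3 rose, 1 fell and 16 did not pass. The shares over all genes were 3.95% higher and 3.01% lower. The median difference of these targets was 0.28. Iigp1, which encodes an interferon-induced GTPase, did not stand well above background in 4T1-A and was higher by at least 5.90-fold in 4T1-S. The chemokine gene Cxcl10 rose by 2.14 ± 0.19 and the GTPase gene Irgm2 by 1.17 ± 0.23. The call of Irgm2 was lost under 6 of 15 alternatives, with adjusted p between 0.0570 and 0.148, among them each that left out a 4T1-S array. Casp1, an inflammatory protease, was lower in 4T1-S by at least 19.4-fold and there not well above background. Where a gene had to be well above background on all 4 arrays, Iigp1 and Casp1 were not tested. The list then had 2 higher and 0 lower, where 608 of 14209 genes passed. Leaving out 4T1-A replicate 2 gave 7 higher, and leaving out any other single array gave 2.

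Among the Stat3 targets 20 could be tested: 3 rose, 0 fell and 17 did not pass. The share called higher over all genes was 3.95%. The median difference of the Stat3 targets was 0.22. Vegfa, an angiogenic growth factor, rose by 1.05 ± 0.24, the acute phase gene Saa3 by 1.03 ± 0.18 and the transcription factor gene Cebpb by 0.90 ± 0.21. Of 15 alternatives, 10 ended the call of Vegfa, 5 that of Saa3 and 9 that of Cebpb, and leaving out either 4T1-S array ended all 3, with adjusted p between 0.109 and 0.200. Leaving out 4T1-A replicate 2 gave 5 calls in the list and leaving out 4T1-A replicate 1 gave 2. Before adjustment, 7 were higher and 0 lower at p under 0.05.

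**Figure D4:**
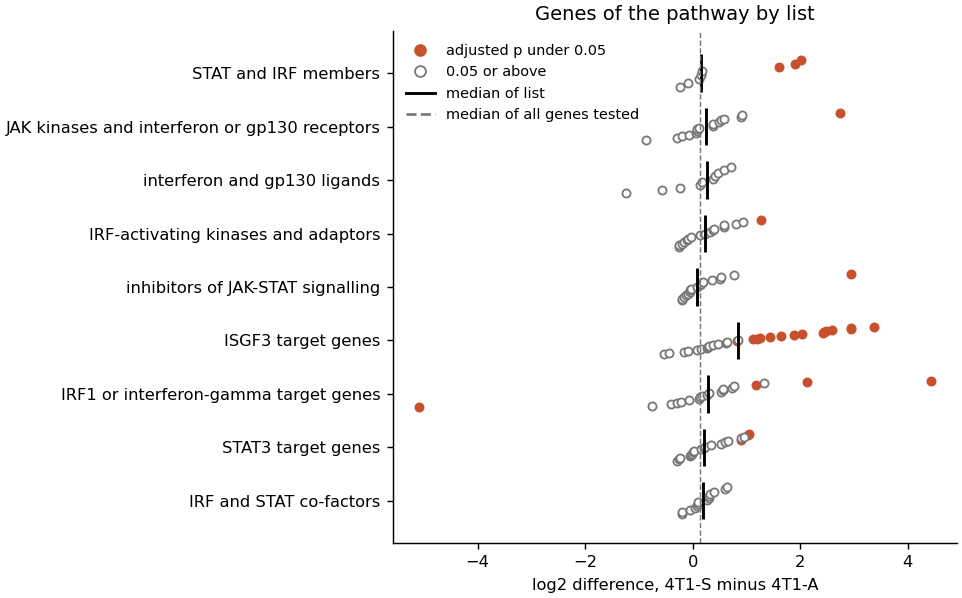
Log2 difference, 4T1-S minus 4T1-A (horizontal axis), of each tested gene in the 8 factor genes and in the lists of the pathway, with filled points for an adjusted p under 0.05, a black bar for the median of the list and a dashed line for the median of all genes. The ISGF3 targets have 15 filled points and a median of 0.85, and the medians of the other pathway lists lie between 0.08 and 0.28, or below 0 with scaling to the median.

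Irf5 and Irf7 are abundant in leukocytes, so markers of other cell types are given beside them. Of 18 leukocyte markers on the array, 8 were well above background on no array, among them Itgam, Adgre1, Tyrobp, Cd8a and Ms4a1, and Ptprc, which encodes CD45, was above it on 1 4T1-S array only. The summed scaled intensity of the leukocyte markers was between 1.34 and 1.39 in 4T1-A and 1.44 on both 4T1-S arrays. Its brightest member, the macrophage gene Cd68, read 0.533 and 0.605 in 4T1-A against 0.387 and 0.313 in 4T1-S (-0.70 ± 0.20, adjusted p = 0.0742), and without it the sum was 0.804 and 0.785 in 4T1-A against 1.05 and 1.13 in 4T1-S. Of 8 tested leukocyte markers 1 rose, Cd4, at least 2.0-fold, with 3 higher and 1 lower before adjustment and a median difference of 0.44. All 10 epithelial markers were well above background on every array, with a sum of 341 and 354 in 4T1-A against 310 and 255 in 4T1-S, mostly from the keratin genes Krt8, Krt7 and Krt18, which did not pass. The other epithelial markers included 5 that were lower in 4T1-S, namely Epcam, Krt19, Cldn4, Cldn7 and Cdh1. The sum of 8 fibroblast markers was 0.683 and 0.892 in 4T1-A against 1.39 and 1.36 in 4T1-S, with Fap, Lum and Pdgfrb above background on no array. Of 4 tested, 1 rose, the collagen gene Col1a1, at least 2.59-fold. Before adjustment, at p under 0.05, all 4 were higher, and their median difference was 0.74. Of 6 endothelial markers 4 were above background on no array, including Pecam1 and Cdh5, and Eng, the only one tested, did not pass (0.66 ± 0.22, adjusted p = 0.101). The endothelial sum was between 2.66 and 3.15 in 4T1-A and between 4.00 and 5.26 in 4T1-S, and without Eng it was 0.112 and 0.113 in 4T1-A against 0.223 and 0.171 in 4T1-S. The part of these shifts in the differences of the factor genes was not tested. More cells with a transcript and more of it per cell cannot be told apart in bulk RNA.

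**Figure D5:**
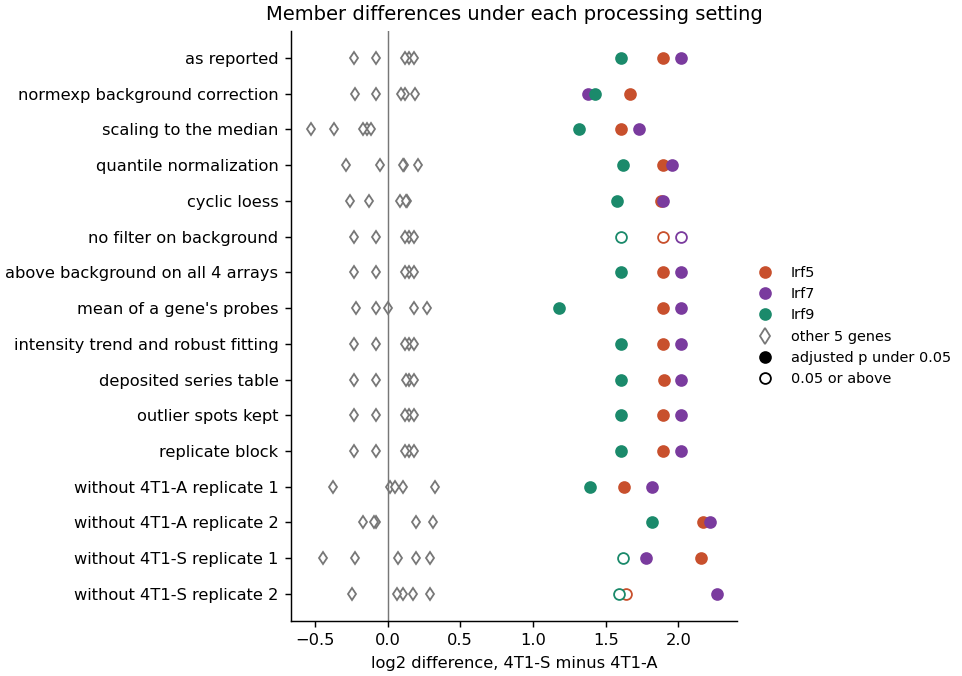
Log2 difference, 4T1-S minus 4T1-A (horizontal axis), of the 8 genes under the reported processing and 15 other settings (rows), with colours for Irf5, Irf7 and Irf9, grey diamonds for the other 5 genes and filled symbols for an adjusted p under 0.05. Irf7 ranges from 1.38 to 2.26, Irf5 from 1.61 to 2.17 and Irf9 from 1.18 to 1.82, and the grey diamonds lie between -0.52 and 0.32 and are never filled.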

How the data were processed

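Spots were read with Agilent Feature Extraction 9.1, per the submitters' processing notes. The deposited processed intensity is background-subtracted and detrended, per the file headers, and is not scaled between arrays. The values of the deposited series table are linear ratios of the processed intensity to the array's 75th percentile, as found from the values by setting it against the scanner intensity. Within a small tolerance, 97.1% of the spots of 4T1-A replicate 1 matched, and 100% of those of the other arrays. Between 54.9% and 59.2% of the spots of an array were well above background.

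Log2 intensity was centred on the array's 75th percentile. Spots with an outlier mark were left out and spots of a probe averaged. Probes were named by RefSeq accession (22951 of 41174), symbol (6659) or synonym (3109), from GRCm38.p6. The other 8455 probes kept the name given on the array, and these names are counted among the gene names. The probe with the highest mean stood for a gene and was tested if both arrays of 1 sub-line or of each showed it well above background (at least 50% of its spots). Differences between sub-lines were tested in limma 3.58.1 (R 4.3.3), with residual degrees of freedom of 2 and prior degrees of freedom of 5.71. The procedure was tested on simulated data. The number of arrays limits the precision.

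The genes and lists were chosen with earlier results of these data known. Named were the 8 genes, up to 3 rises and 3 falls per list (else its brightest gene), and the nearest 5 genes to Irf7, of which 1 is not reported here, and 3 to Stat2. Alternatives were normexp, scaling to the median, quantile normalization, cyclic loess, the background filter, the mean of probes, trended robust fitting, the series table, keeping marked spots, the replicate number as a block, and leaving out each array.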

Additional observations from a re-analysis of the deposited data

How the results depend on the processing

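Over all genes, 1126 passed with the reported processing, 511 with normexp, 730 with quantile normalization, 271 with no filter on background, 608 with the filter on all 4 arrays and between 306 and 2359 without 1 array at a time. The 3 calls among the 8 genes, and among the 12 probes, fell to 0 with no filter. More genes were tested there, and the prior degrees of freedom were lower. Some of these calls were also lost without 4T1-S replicate 2. Of the genes that did not pass, Stat3 turned to -0.14, Irf1 to -0.17 and Irf2 to -0.11 with scaling to the median, which shifts all genes (median -0.16 against 0.13). Without 1 array at a time Stat2 lay between -0.45 and 0.29 and Irf1 between -0.077 and 0.32. Irf3, Irf5, Irf7 and Irf9 kept their direction under all 15 alternatives. With the replicate number as a block 3684 genes passed, and 4 of the 12 probes in place of 3. The deviations of same-numbered arrays correlated at r = 0.42 over genes, but the labels do not say that a number pairs samples, and there were 2 pairs.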
